A study of Mus musculus with 7 samples.

Results

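The Rab GTPases, the largest branch of the Ras superfamily, were followed in naive CD8 T cells from mouse lymph nodes. Members were the genes whose array name is Rab followed by a number, with an optional letter and digit. There were 57 such names, carried by 82 probes, of the 34797 gene names and 55681 probes on the array. Of the 57 names, 42 had a probe well above background on at least 3 of the 7 arrays and were measured, against 18231 of all names. The members were chosen by name alone, but the family was singled out with results of the same comparison known, because Rab6b had the most negative difference of all 18231 genes. The difference of Rab6b is therefore given as a description without a test.

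Each Rab is a molecular switch. An exchange factor (GEF) loads it with GTP, after which it sits on one kind of membrane and recruits effectors that form, move, tether or fuse vesicles. A GTPase-activating protein (GAP) ends this state, and the carrier GDI takes the inactive Rab back into the cytosol. In T cells, Rabs direct the recycling of surface receptors to the contact with the target cell and the release of cytotoxic granules.

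Each sample's total RNA, labelled with Cy3, was hybridised to 1 Agilent array, 7 in all. The WT group held 3 samples of genotype OT-1het, Rag-/-, that is, cells with 1 transgenic T cell receptor and no other rearranged receptors. The second group held 4 samples of genotype OT-1het, Rag-/-, Lck-/-, whose only Lck came from a knocked-in copy that needs doxycycline; the drug had been left out of the diet for 7 days. This group is called Lck-off here. All samples were freshly isolated, unstimulated cells sorted as CD8b+ and CD44low. The labels give neither the promoter behind the inducible copy, nor the diet and age of the WT mice, nor how many mice gave a sample, and no Lck-/- mice still on doxycycline were among the samples, so genotype, diet and loss of Lck cannot be told apart. By the series text the samples are biological replicates.

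Levels are log2 intensities relative to the 75th percentile of the same array, ± marks 1 SD (n = 3 in WT, n = 4 in Lck-off), and a difference is Lck-off minus WT on that log2 scale, with its standard error (SE). A gene is said to have changed when limma, fitted to all 18231 genes, put its p below 0.05, two-sided, after Benjamini-Hochberg adjustment. Levels of different probes were not comparable with each other. In bulk RNA, fewer cells of a type and less RNA per cell cannot be told apart.

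Arrays were alike in brightness, with 75th percentiles of 207.9 to 234.8 (WT) and 212.3 to 242.9 (Lck-off) intensity units and no saturated spot. The number of arrays limits the precision. Lck read 8.98 to 9.02 in WT, against 8.52 to 8.83 in Lck-off, a level of 77.2% of WT (difference -0.37, SE 0.09, limma adjusted p = 0.0493), from a probe that may lie outside the altered part of the gene. All 10 markers of CD8 T cells were measured; only Lat changed (0.27), and their summed level ran from 11.13 to 11.21 (WT) and from 11.15 to 11.24 (Lck-off). Of 22 markers of macrophages, neutrophils and dendritic cells, 14 were measured and only C1qb changed (0.59), but their median difference was 0.74; the sum, carried mostly by the Siglech probe, ran from 8.26 to 8.42 (WT) and from 8.35 to 8.63 (Lck-off). Ms4a1 and Pax5 (B cells) and Pf4, Ppbp and Gp9 (platelets) never stood well above background, and none of 5 NK cell markers was measured. The 4 measured B cell markers summed to 3.61 to 3.84 (WT) and 3.57 to 3.88 (Lck-off), and the 3 measured platelet and red cell markers to -1.73 to 0.96 (WT) and 0 to 1.76 (Lck-off). Of 9 stroma markers, 4 were measured, and their sum ran from 0.89 to 1 (WT) and from 0.83 to 1.4 (Lck-off). Only Pdgfrb changed among them (-1.15, limma adjusted p = 0.0476), well above background on 3 WT and 0 Lck-off arrays. The part of these markers in the differences below was not tested.

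The result that stands out in this family rests on 1 probe, so the probes behind the main members are shown first. Each is a 60-base oligonucleotide in transcript sense, of which the first 30 bases are printed, 5′ to 3′, in lower case throughout because no motif is marked. Rab6b has this single probe on the array, while Rab6a and Rab4a have 2 each, which gives those genes an internal check.
Rab6b: ctgtgtaatatgtggaaaagactcagcatg
Rab6a, brighter probe: cataccctgtaacttatactcaaacatggg
Rab6a, second probe: cagtgcttacgcttacgcttctttcctagt
Rab32: gccaagtttctgtagtgtaaaacctggaag
Rab4a, brighter probe: aatgctaaacccacaggactcattaacacc
Rab4a, second probe: gagaacgtcgaagaggctttcatgcagtgt

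On mm9, the build in the file headers, the Rab6b probe lies on the plus strand at chr9:103087539-103087598 and starts at base 4672 of the transcript. The Rab6a probes lie on the plus strand at chr7:107789641-107789700 (from transcript base 3072) and chr7:107790063-107790122 (from base 3317). The Rab32 probe lies on the minus strand at chr10:10265134-10265193 (from base 1697), and those of Rab4a on the plus strand at chr8:126359128-126359187 (from base 1348) and chr8:126356738-126356797 (from base 620). No genome or gene model of this build was used here, so exon and untranslated region were not assigned. The longest run of bases that the Rab6b probe shares with a Rab6a probe is 7, and with any of the other 81 Rab probes it is 9 (a Rab38 probe). Over the whole array, on either strand, the longest shared run is 15 bases, with a probe for Psmd10.

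Rab6b RNA was well above background in all WT samples and near or below the detection limit in the Lck-off samples. Rab6b, a Golgi Rab best known from neurons, read 2.57, 3.38 and 3.02 on the WT arrays and -4.71, -4.74, -2.89 and -2.31 on the Lck-off arrays. All 4 Lck-off values lay far below the lowest WT value, and the groups did not overlap. As processed intensity the same spots read 1230, 2190 and 1900 in WT, against 8.45, 7.95, 32.7 and 46.8 in Lck-off. Lck-off replicates 3 and 4 were well above background and replicates 1 and 2 were not, so the spread within the Lck-off group (SD 1.25, against 0.41 in WT) lies partly in values near the detection limit. On the values as measured, 2 of which lie below detection, the difference was -6.65 (SE 0.64), or 0.994% of WT, and ranked as the most negative of all genes. With those 2 arrays raised to the faintest level that counted as well above background there, it was -6.11, or 1.45%.

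The size of this difference was not the same in every version of the values. With normexp background correction in place of the processed intensity, the difference was -4.49, and in the authors' deposited value table it was -4.44; the same 2 Lck-off arrays limit these values too. It was -6.84 within row 1 of the slide (1 WT and 2 Lck-off arrays) and -6.49 within row 2 (2 and 2). The groups do not overlap, so any such split had to give a difference of this sign.

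Rab6a, the paralog found in most cell types and the main Rab of traffic through and out of the Golgi, did not pass the test. It read 3.64, 3.65 and 3.79 in WT, against 3.61, 3.69, 3.72 and 3.58 in Lck-off. The groups overlapped, the difference was -0.04 (95% confidence interval -0.22 to 0.13), and the second Rab6a probe gave 0.04 (SE 0.10). Taken within each array, Rab6b minus Rab6a was -1.07, -0.27 and -0.77 in WT, against -8.32, -8.43, -6.61 and -5.90 in Lck-off, and the changes of the paralogs differed by -6.61 (SE 0.67). Against the median of the other 41 measured Rabs on the same array, Rab6b changed by -6.56 (SE 0.68), while that median itself moved from 2.75 ± 0.08 to 2.66 ± 0.08.

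**Figure D1:**
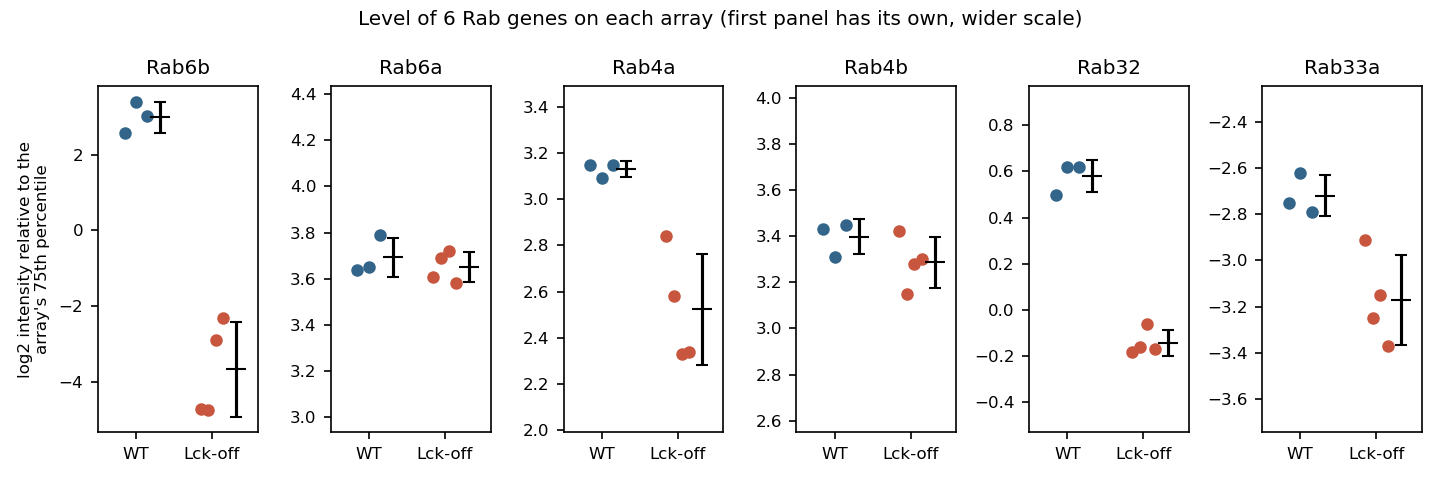
Level of 6 Rab genes on each array, as log2 intensity relative to the array's 75th percentile; points are arrays (3 WT, 4 Lck-off), the dash with its bar is the mean ± SD, and the y axis of Rab6b is wider than the others, which all span the same range. Rab6b went from between 2.57 and 3.38 in WT to between -4.74 and -2.31 in Lck-off, whereas the arrays of Rab6a and of Rab4b overlapped between groups.

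The genes beside Rab6b on chromosome 9 were also read out, a choice made after its values were seen. Srprb, whose probe lies 4.7 kb away and which encodes a subunit of the signal recognition particle receptor, differed by -0.01 (SE 0.10), and the transferrin gene Trf, 23.7 kb away, by 0.05 (SE 0.33). A little further on, Topbp1, Cdv3 and Tmem108 read -0.18, -0.26 and -0.22 without passing the test, and Bfsp2, 239.7 kb away, fell by 0.55 (limma adjusted p = 0.0407). For Topbp1, Cdv3, Bfsp2 and Tmem108 the Lck-off arrays all lay below the WT arrays, as for 12% of all genes. Within 1 Mb to either side, 1 of 13 measured genes was lower and 0 were higher at that threshold, with a median of -0.01 and a range of -0.55 to 0.20. Within 5 Mb, 4 of 105 were higher and 4 lower, with a range of -1.4 to 1.79. Of all genes, 3.8% were higher and 4.57% lower.

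**Figure D2:**
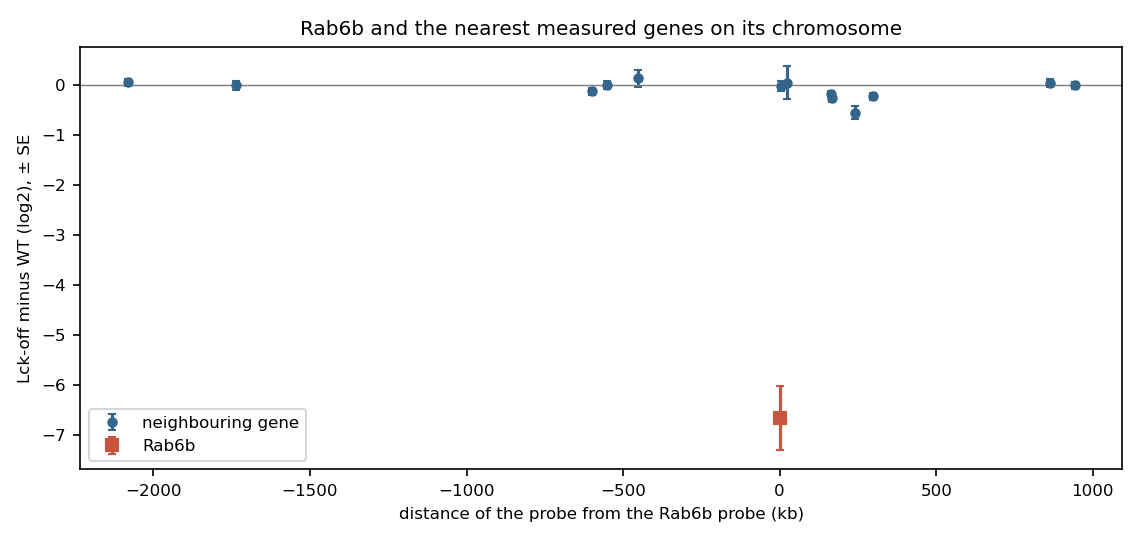
Lck-off minus WT (log2, ± SE) of Rab6b and the nearest measured genes with a current symbol, against the distance of their probes from the Rab6b probe in kb. Rab6b lies at -6.65 and its neighbours between -0.55 and 0.14.

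Among the 41 measured Rabs other than Rab6b, 2 were past the threshold, Rab32 and Rab4a, both lower in Lck-off. That is 4.88% of them, where 8.38% of all genes passed, 4.57% as lower and 3.8% as higher. Over the repeats with 1 array left out, the share of all genes ran from 5.27% to 7.71%. Of the 41 Rabs, Rab32 alone passed when WT replicate 1, 2 or 3 or Lck-off replicate 3 or 4 was left out. Without Lck-off replicate 1, Rab32, Rab33a and Rab4a passed, and without Lck-off replicate 2, Rab20 and Rab32. With Rab6b, for whose difference the family was chosen, the count in the full fit was 3 of 42, and nothing is read from it. None of the 41 other Rabs both passed and differed at least 2-fold, as 2.42% of all genes did. At an unadjusted p under 0.05 there were 6 of these 41, beside 3918 of the 18231 genes. The arrays of the groups did not overlap for 10 of the 41 (5 higher, 5 lower), or 24.4%, against a background of 21.8% (9.8% higher, 12% lower). Their median difference was -0.04, and -0.01 over all genes. Of these Rabs, 35 of 41 (85.4%) lay within 0.25 of 0, as did 71.9% of all genes. For 30 of the Rabs that did not pass, the 95% confidence interval stayed inside -0.5 to 0.5. Each interval was taken for its gene alone, so together they do not bound all 30 changes.

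**Figure D3:**
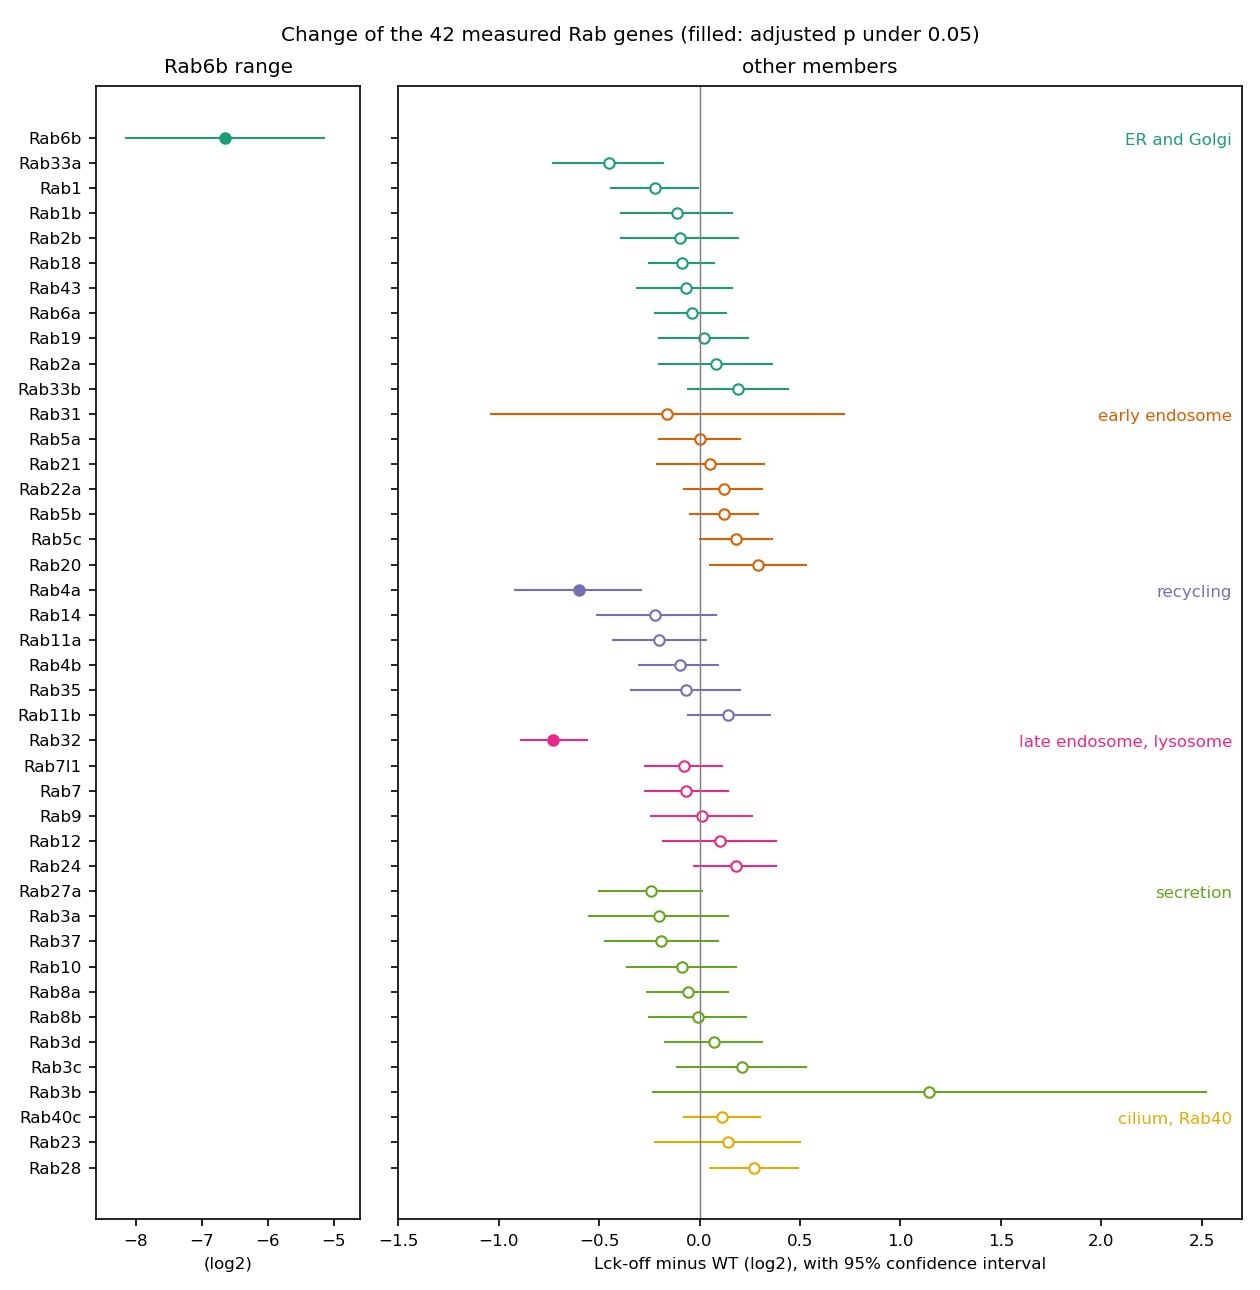
Lck-off minus WT (log2) of the 42 measured Rab genes by role, with 95% confidence intervals from limma; filled points passed an adjusted p under 0.05, and the left panel is a separate range of the same axis that holds Rab6b alone. Apart from Rab6b, Rab32 (-0.73) and Rab4a (-0.60) are the filled points. Rab6b was chosen for its difference, so its filled point is not a test result.

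Rab32, which serves late endosomes, lysosome-related organelles and mitochondria, fell to 60.5% of its WT level (95% confidence interval 54.0% to 67.7%). It read 0.50, 0.62 and 0.62 in WT, against -0.18, -0.16, -0.06 and -0.17 in Lck-off. All Lck-off arrays lay below the WT arrays, and the spread within each group was small (SD 0.07 and 0.05). The difference was -0.73 (SE 0.07, limma adjusted p = 0.00140). Within slide rows 1 and 2 it was -0.73 and -0.74, without passing in the few arrays of a row (limma adjusted p = 0.204 and 0.112). In fits across both rows it stayed past the threshold whichever single array was omitted (limma adjusted p = 0.00449 to 0.00925 over 7 omissions). In the same role group, Rab7 (the master Rab of late endosomes) differed by -0.07, Rab7l1 (now Rab29) by -0.08, Rab9 by 0.01 and Rab12 by 0.10, and none of these passed. Rab24, linked to autophagy, did not pass at 0.18 (SE 0.09, limma adjusted p = 0.303), although its arrays did not overlap between groups.

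Rab4a, which returns receptors from early endosomes to the surface by the fast route, was lower in both of its probes. The brighter probe read 3.15, 3.09 and 3.15 in WT, against 2.84, 2.58, 2.33 and 2.34 in Lck-off, and the second 0.37, 0.39 and 0.35 in WT, against -0.11, -0.39, -0.23 and -0.49 in Lck-off. In neither probe did the groups overlap, and the Lck-off arrays were spread more widely (SD 0.24 against 0.03). The gene fell by 0.60 (SE 0.13, limma adjusted p = 0.0350), to 65.8% of WT, and the second probe gave -0.68 (SE 0.10). The call was lost when WT replicate 1, 2 or 3 or Lck-off replicate 2, 3 or 4 was left out. Over the 7 repeats the adjusted p ran up to 0.109 by limma, with differences of -0.71 to -0.54. It was also lost when the fit held a term for slide row (-0.59, limma adjusted p = 0.0673). The same held with median scaling (-0.62, limma adjusted p = 0.113) and with no filter on dim probes (-0.60, limma adjusted p = 0.136).

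The other recycling Rabs showed smaller differences. Rab4b, the paralog of Rab4a, read 3.43, 3.31 and 3.45 in WT, against 3.42, 3.15, 3.28 and 3.30 in Lck-off, with a difference of -0.10 (95% confidence interval -0.30 to 0.09). Rab11a, the Rab of the recycling endosome, differed by -0.20 (-0.43 to 0.03), Rab14 by -0.22 and Rab11b by 0.14. Rab35, which acts in recycling of the T cell receptor to the synapse, differed by -0.07 (-0.34 to 0.20).

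Among the Rabs of the ER and the Golgi other than Rab6b, Rab33a came nearest to passing. It read -2.75, -2.62 and -2.79 in WT, against -2.91, -3.25, -3.15 and -3.37 in Lck-off. The groups did not overlap, but the gap between them was narrow. The difference of -0.45 (SE 0.12) gave an adjusted p of 0.0635 by limma, and with Lck-off replicate 1 left out it was -0.54 and past the threshold (adjusted p = 0.0203). With normexp background correction it was -0.20, but the 50 units added there exceed this probe's processed intensities of 22.3 to 34.2. Rab1 (now Rab1a), required for transport from ER to Golgi, differed by -0.22 (SE 0.09, limma adjusted p = 0.219) with no overlap between groups, and its partner Rab1b by -0.11. Rab2a, Rab2b, Rab18, Rab19, Rab43 and Rab33b lay between -0.10 and 0.19.

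Of the 7 early endosome Rabs, 5 had a difference above 0, Rab31 read -0.16 and Rab5a 0.00. By limma 0 passed, where 8.38% of all genes did. At an unadjusted p under 0.05 there was 1, beside 3918 of the 18231 genes. The median of the 7 was 0.12, and 3 of them (Rab20, Rab5b and Rab5c) had no overlap between groups and read higher, as 9.8% of all genes did. Rab20, which acts in the maturation of phagosomes and endosomes, read -0.36, -0.37 and -0.42 in WT, against 0.03, -0.35, -0.04 and -0.03 in Lck-off. Lck-off replicate 2 was hardly above the WT arrays, and the other 3 were clearly above them. The difference was 0.29 (SE 0.10, limma adjusted p = 0.159), and without Lck-off replicate 2 it was 0.37 and past the threshold (adjusted p = 0.0277). Rab5c and Rab5b, which drive fusion of early endosomes, differed by 0.18 (SE 0.08) and 0.12 (SE 0.07), while the isoform Rab5a differed by 0.00 (-0.20 to 0.20).

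None of the 9 measured Rabs of secretion passed by limma, where 8.38% of all genes did. At an unadjusted p under 0.05 there were 0, beside 3918 of the 18231 genes. Rab27a, which docks cytotoxic granules at the plasma membrane of killer cells, read 1.18, 1.01 and 1.41 in WT, against 1.10, 0.91, 0.92 and 0.91 in Lck-off. The groups overlapped through Lck-off replicate 1, and the difference was -0.24 (SE 0.11, limma adjusted p = 0.261). Rab8a, Rab8b and Rab10, which carry vesicles from the Golgi and endosomes to the surface, differed by -0.06, -0.01 and -0.09, and Rab37 by -0.19. The Rab3 isoforms of regulated secretion were dispersed. Rab3a differed by -0.20, Rab3c by 0.21 and Rab3d by 0.07. Rab3b, well above background on 4 of 7 arrays, ran from -5.39 to -3.54 in WT and from -4.47 to -2.37 in Lck-off, a difference of 1.14 with an interval of -0.23 to 2.52. The Rabs of the cilium and the Rab40 group also did not pass: Rab28 differed by 0.27 (SE 0.09, limma adjusted p = 0.144) with no overlap, Rab23 by 0.14 and Rab40c by 0.11.

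Paralogs that share a number were compared by the difference of their changes within arrays, with exact permutation over the 35 splits of the arrays, two-sided, in 15 pairs; Rab6a and Rab6b were left out of the tests. With 15 pairs, at least 9 would have to reach the smallest p for any to pass after adjustment, so the design could hardly make a call, and the sizes are given as a description. Rab4a changed by -0.50 (SE 0.11) relative to Rab4b, and Rab33a by -0.64 (SE 0.07) relative to Rab33b; both gave the smallest p the splits allow, exact p = 0.0286, or 0.214 adjusted over the 15 pairs. Rab11a changed by -0.34 (SE 0.09) relative to Rab11b (exact p = 0.0571, adjusted 0.286). For Rab8a against Rab8b and Rab5b against Rab5c the difference was -0.05 (SE 0.07 and 0.06).

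Several probes were kept for 14 Rabs, and for 13 of these all probes of a gene gave differences within 0.2 of each other. The exception was Rab43, whose probes gave -0.07 and 0.19, neither past the threshold.

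The 15 members that were not measured were Rab9b, Rab13, Rab15, Rab17, Rab25, Rab26, Rab27b, Rab30, Rab34, Rab36, Rab38, Rab39, Rab39b, Rab40b and Rab44. For 10 of them no probe was well above background on any array. The others were well above it on 1 or 2 arrays: Rab30 on 2 Lck-off arrays, Rab17, Rab27b and Rab36 on 1 Lck-off array each, and Rab26 on 1 array of each group. The Rab36 probe read -1.99 on Lck-off replicate 4 and between -5.98 and -5.27 on the other 6 arrays, and a Rab30 probe read -0.98 on that same array, where the second Rab30 probe read -5.58. Each of these high readings came from 1 spot, and Rab36 had no second probe to compare.

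The proteins that control and read Rabs were taken from lists assembled from general knowledge. Among 27 measured exchange factors, 2 rose and 0 fell, where 8.38% of all genes passed, and the median difference was 0.05. Als2cl, a relative of the Rab5 exchange factor alsin, went from 6.15 ± 0.10 to 6.99 ± 0.17 (0.84, SE 0.11, limma adjusted p = 0.00394). It read 6.24, 6.05 and 6.15 in WT, against 7.11, 7.15, 6.81 and 6.89 in Lck-off, with no overlap. Dennd5a, a Rab6-binding protein with an exchange domain, rose by 0.67 (SE 0.07, limma adjusted p = 0.00215); its arrays read 1.20, 1.30 and 1.10 in WT, against 1.84, 1.93, 1.85 and 1.85 in Lck-off, and its second kept probe gave 0.65.

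Of 32 measured GTPase-activating proteins, 3 rose and 1 fell, with a median of 0.08 (8.38% of all genes passed). Tbc1d4 (AS160), which restrains surface delivery of glucose transporters, rose by 1.13 (SE 0.10, limma adjusted p = 0.00128). It read -0.44, -0.68 and -0.72 in WT, against 0.42, 0.67, 0.56 and 0.40 in Lck-off, so that all Lck-off arrays were above all WT arrays. Rabgap1l rose by 0.51 (SE 0.07), and 2 probes gave 0.50 and 0.51; with median scaling it did not pass (0.50, limma adjusted p = 0.0589). Tbc1d16, a GAP that acts on Rab4a, rose by 0.65 (SE 0.12), and Tbc1d15, a GAP for Rab7, fell by 0.39 (SE 0.07). The call of Tbc1d16 was lost without WT replicate 2 or 3 or Lck-off replicate 3 (adjusted p up to 0.0567 by limma), and that of Tbc1d15 without WT replicate 1, 2 or 3 or Lck-off replicate 3 (up to 0.0712). The count of this list was 2 without WT replicate 2, WT replicate 3 or Lck-off replicate 3.

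**Figure D4:**
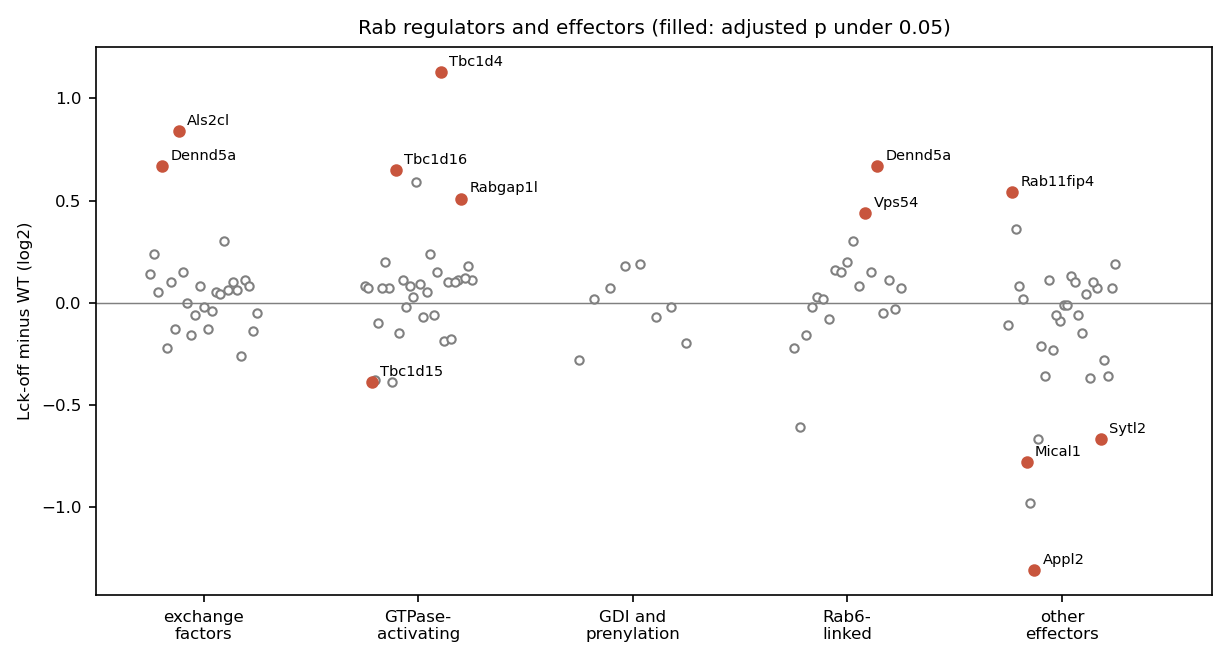
Lck-off minus WT (log2) of the measured genes in 5 lists of Rab regulators and effectors, 1 point per gene; filled points passed an adjusted p under 0.05 by limma, and Dennd5a appears in 2 lists. The filled points run from Appl2 at -1.31 to Tbc1d4 at 1.13, with none among the GDI and prenylation genes.

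The 8 genes of GDI, of the Rab escort proteins and of prenylation all lay between -0.28 and 0.19. None passed by limma, where 8.38% of all genes did, and 2 were at an unadjusted p under 0.05, as were 3918 of the 18231 genes. The nearest was Chm, the escort protein that presents new Rabs for prenylation, at -0.28 (SE 0.09, limma adjusted p = 0.126).

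Of 19 measured genes that bind or act with Rab6 at the Golgi, 2 rose and 0 fell, beside 8.38% of all genes, and the median was 0.07. These were Dennd5a, above, and Vps54, a subunit of the GARP tether for vesicles that return from endosomes, at 0.44 (SE 0.10, limma adjusted p = 0.0358). Vps54 read 1.14, 1.32 and 1.30 in WT, against 1.76, 1.49, 1.73 and 1.78 in Lck-off. Its call was lost without WT replicate 1, 2 or 3 or Lck-off replicate 1, 3 or 4 (adjusted p up to 0.111 by limma), which leaves 1 gene called in this list, and its second kept probe gave 0.33. Kif20a, a mitotic kinesin that binds Rab6, read -0.61 (SE 0.24) without passing.

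Of 30 measured effectors of other Rabs, 1 rose and 3 fell, with a median of -0.06 (8.38% of all genes passed). Appl2, an adaptor on early endosomes that binds Rab5, went from 1.57, 1.53 and 1.92 in WT to 0.35, 0.34, 0.35 and 0.43 in Lck-off. The groups stood far apart, with a difference of -1.31 (SE 0.11, limma adjusted p = 0.000782). Mical1, an actin-oxidising enzyme that binds several Rabs, went from 6.84 ± 0.02 to 6.05 ± 0.09 (-0.78, SE 0.07, limma adjusted p = 0.00123). Sytl2 (Slp2), a Rab27a effector of granule docking, read 0.27, 0.19 and 0.44 in WT, against -0.39, -0.29, -0.33 and -0.47 in Lck-off, and fell by 0.67 (SE 0.09, limma adjusted p = 0.00434). Unc13d (Munc13-4), another Rab27a effector, differed by -0.21 (SE 0.07, limma adjusted p = 0.123) with no overlap between groups. The related Sytl3 and Sytl1 went the other way, at 0.36 (SE 0.17) and 0.10 (SE 0.10). Neither passed, and their groups overlapped. Rab11fip4, an effector of Rab11, rose by 0.54 (SE 0.12, limma adjusted p = 0.0360), and its second kept probe gave 0.72; the call was lost with any array but Lck-off replicate 4 left out (adjusted p up to 0.0924 by limma), and with a term for slide row (0.55, adjusted p = 0.0603).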

How the data were processed

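The authors' intensity values came from Agilent Feature Extraction 10.7.3.1 (array design 028005), per the file headers: processed intensity is background subtracted and detrended within an array, with no scaling between arrays. The deposited value table holds what its range shows to be log2 values; limma appears in the submitters' processing notes, without further steps.

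Processed intensities were divided by each array's 75th percentile over non-control spots and taken as log2. Non-uniform spots were dropped and repeated spots averaged. A probe was kept if 3 or more of the 7 arrays had it well above background (58 of 82 Rab probes). The brightest kept probe stood for a gene. Groups were compared with limma 3.58.1 (R 4.3.3), checked on simulated data. All 57 Rab names matched a RefSeq gene (GRCm38.p6, names alone).

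Named were Rab6b, Rab6a, every Rab past the threshold, the 2 of smallest p per role, 7 Rabs known from T cells, and up to 4 called genes per regulator list (the nearest where none passed); others were named after their values were seen. Members, lists and tests were chosen with earlier results of these data known. P-values measure the spread between these samples.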

Additional observations from a re-analysis of the deposited data

Results flagged for a closer look

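In 5 of the 54 genes screened (the measured Rabs and the named regulators), 1 Lck-off array lay far from the other 3 by Dixon's criterion; chance gives about 1 in 20. Rab27a read 1.10 on Lck-off replicate 1, with the next array at 0.92. Dennd5a read 1.93 on Lck-off replicate 2 (next 1.85), Appl2 0.43 on replicate 4 (next 0.35) and Rab5b 3.04 on replicate 3 (next 2.93). Rab31, whose probe is dim, read -2.68 on Lck-off replicate 2, with the next Lck-off array at -3.47, but WT replicate 3 read higher still (-2.60). Among the macrophage and dendritic cell markers, H2-Ab1 (2.25), Fcer1g (0.20), H2-Eb1 (2.29), Cd74 (1.41) and H2-Aa (-1.09) were also highest on Lck-off replicate 2. So were C1qb (-1.51), Cd68 (0.21), Cst3 (4.34) and Siglech (8.24). C1qa, C1qc, Csf1r, Flt3 and Itgam were highest on other arrays. On WT replicate 3, H2-Ab1 (-0.93) and Fcer1g (-1.89) were at their lowest. Their part in the Rab31 value was not tested.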

How the results depend on the processing

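Among 29 named genes and 579 alternative values, 0 reversed a called direction, 499 kept their side of the threshold, 77 lost a call and 3 gained one; of 14 called genes, 5 lost the call in some repeat with 1 array left out. The differences of Rab7, Rab8a and Rab35, not called and near 0, turned sign in some alternatives, to at most 0.02. That of Rab5a, also not called and 0.00 in the main fit, ran from -0.12 within slide row 1 to 0.07 without WT replicate 3. None of the 14 passed within a single slide row. The count of Rabs past the threshold, 3 with Rab6b, was 1 with the replicate block and 0 within slide row 1 and 0 within row 2, against 4 and 5 at an unadjusted p under 0.05 by limma; all of the 3 were lower, so the counts of lower Rabs are the same. The count of Rabs was 2, both lower, with median scaling, no filter on dim probes or the slide row as a block. Over the repeats with 1 array left out, 2 to 4 Rabs passed, of which 0 to 1 were higher and 2 to 4 lower. For exchange factors (2), the count was 0 with the replicate block and within either row, 4 with trended and robust moderation, and 2 throughout the repeats. For GAPs (4), it was 2 with median scaling or no filter on dim probes, 1 with the replicate block, 0 within either row, and 2 to 5 over the repeats. For Rab6-linked genes (2), it was 1 with median scaling, no filter, probes averaged or the slide row as a block, 0 with the replicate block and within either row, and 1 to 2 over the repeats. For other effectors (4), it was 2 with the replicate block, 1 within row 1, 0 within row 2, and 3 to 5 over the repeats. The whole-array count was 918 with median scaling, 717 without the filter, 374 with the replicate block, 105 within row 1 and 0 within row 2 (2520 and 2711 at an unadjusted p under 0.05 by limma), and 960 to 1405 over the repeats, against 1527. The change of Rab6b relative to Rab6a was -4.46 with normexp correction and -4.44 in the authors' deposited table, against -6.61. The normexp setting adds 50 units to every intensity, which shrinks the log2 differences of dim spots. What sets the value in the deposited table was not tested. Replicate numbers did not pair the samples: the deviations of same-numbered arrays correlated at 0.106, 0.049 and -0.008. With the replicate block, Lck-off replicate 4 has no partner; Rab6b was -7.10 there, and Rab32 was -0.72 (limma adjusted p = 0.0505).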
